A study of Mus musculus with 40 samples.

Results

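The 8 genes described here make up the MHC class II antigen presentation pathway as chosen for this report, namely H2-Aa, H2-Ab1, H2-Eb1, Cd74, Ctss, H2-DMa, H2-DMb1, and Ciita. They were chosen by name from the 55487 genes of the count table, each was found once by its identifier, and all 8 were among the 20297 genes that passed the filter on low counts. Liver RNA was sequenced from hepatocyte-specific Nampt knockout mice (HNKO, with both Nampt alleles floxed and the Cre recombinase driven by the albumin promoter) and from floxed WT littermates without Cre. The mice were young adult females of the strain C57BL/6JBomTac, each gave 1 library, and all of them had been fed the same purified control diet. The groups held 5 WT and 5 HNKO mice at day 3, 4 WT and 5 HNKO mice at day 6, 5 WT and 6 HNKO mice at day 12, and 5 WT and 3 HNKO mice at day 21. These days count the feeding of the diet in the study's methods, whereas the labels give them as an age. Afp, which is abundant in newborn liver, ranged from 4.5 to 23.5 CPM (counts of a gene scaled to the size of the library) over the libraries, and H19, a further such transcript, from 0.152 to 76.1 CPM. Cre was designed to act in hepatocytes, so that Nampt should be retained in the other cells of the liver. Nampt was not measured by cell type in these bulk samples.

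MHC class II molecules are pairs of an alpha and a beta chain that carry peptides to the cell surface, where CD4+ T cells read them. They are made mainly by dendritic cells, macrophages, and B cells, and in the liver also by Kupffer cells and some endothelial cells, whereas resting hepatocytes make little. The new chains bind the invariant chain, Cd74, which blocks the groove until cathepsin S and related proteases cut it down to a small fragment, and the H2-DM dimer then exchanges this fragment for a peptide. The genes for the chains, the invariant chain, and H2-DM share promoter elements named the S, X, and Y boxes, and are switched on by the coactivator Ciita.

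Total counts ranged from 16151037 to 64181492 in the 38 libraries used, which was deep enough for at least 35 counts of each member in each library. Nampt ranged from 30.3 to 155 CPM, and was lower in HNKO by a log2 fold change of -0.83 (SE 0.12) over the mean of the 4 days (adjusted p = 2.61e-06, edgeR). Library numbers form 2 series, 1 to 21 and 22 to 41, each with all days, and the 3 HNKO libraries used at day 21 are all of the second. HNKO libraries 17 and 18 of day 21, described as failing quality control, were left out. WT library 26 of day 3 stood apart in B cell markers, which summed to 44.7 CPM there and to between 6.56 and 13.7 CPM in the other 37 libraries. Each of the 74 pairs of mice in the same group gave counts farther apart than sampling alone would put them (chi-square per gene of at least 13.96), so that no library was counted as a repeat of another.

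The level of each transcript per length of exon, in CPM per kb, was used to order the members in WT livers. The length is the union of all annotated exons of a gene, which can exceed the transcript made, so that the order of neighbours depends on it. In log2 CPM without this division, H2-Aa lay above H2-Ab1 in WT (means of 5.22 and 4.92 at day 3) and H2-DMa above H2-DMb1 (2.30 and 1.54). Cd74 was highest with a geometric mean of 40.8 CPM per kb over the 19 WT libraries, followed by Ctss with 34.4. The 3 chain genes followed together, with 8.79 for H2-Ab1, 8.66 for H2-Eb1, and 7.16 for H2-Aa. H2-DMb1 with 1.54 and H2-DMa with 1.12 CPM per kb came next, and Ciita was lowest with 0.545. On the log2 scale the means were 5.35 ± 0.46 for Cd74 and 5.10 ± 0.35 for Ctss, so that these neighbours differed by less than 1 SD, as did H2-Ab1 (3.14 ± 0.48), H2-Eb1 (3.11 ± 0.54), and H2-Aa (2.84 ± 0.54; SD, n = 19 each). In the 19 HNKO libraries the geometric means were 67.2 for Cd74, 52.0 for Ctss, 17.5 for H2-Eb1, 15.4 for H2-Ab1, 12.9 for H2-Aa, 2.69 for H2-DMb1, 1.76 for H2-DMa, and 0.971 for Ciita. H2-Ea-ps, the alpha chain partner of H2-Eb1 that this strain does not express, had 0 counts in all used libraries but 1, an HNKO library of day 12 with 1 count. A count of 0 allows up to 3 counts in a library.

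**Figure D1:**
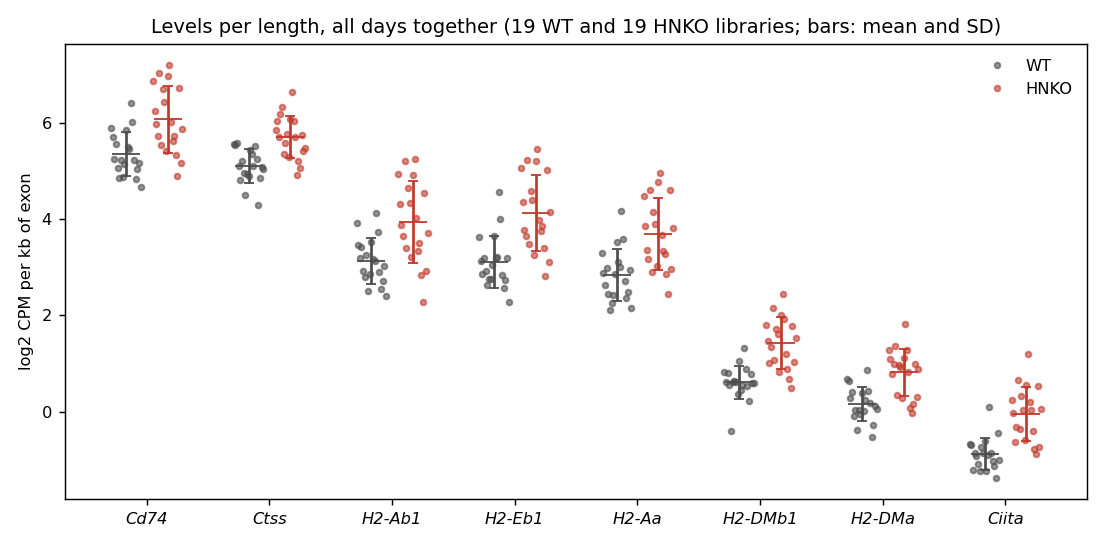
Level of each member per length, as log2 CPM per kb of exon, in the 19 WT (grey) and 19 HNKO (red) libraries of all days, with mean and SD. Cd74 and Ctss lie highest, the 3 chain genes in the middle, and the H2-DM chains and Ciita lowest, and the HNKO mean is above the WT mean for each of the 8 genes.

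All 8 genes were higher in HNKO than in WT livers over the mean of the 4 days, by 1.51-fold (Ctss) to 2.2-fold (H2-Eb1). At single days, 5 of the 8 rose at day 6, namely Ciita, Ctss, H2-DMa, H2-DMb1, and H2-Eb1, and 2 rose at day 12, namely Ciita and H2-DMa. None passed the test at days 3 and 21, although each had a positive log2 fold change at each day. In these bulk samples, fewer or more cells of a type and less or more RNA per cell cannot be told apart.

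Over all tested genes, 2.95% were called higher and 1.71% lower in HNKO at day 3, where 0 of the 8 members were called (edgeR, adjusted p under 0.05). There, 5 of the 8 had an unadjusted p under 0.05, and DESeq2 also called 0. At day 6, 5 of 8 were called higher against 8.42% of all tested genes, with 4.37% called lower. At day 12, 2 of 8 were called higher against 4.56%, with 3.27% called lower. DESeq2 called more members than edgeR at days 6 and 12, as given below with the other settings. At day 21, 0 of 8 were called against 2.21% higher and 0.916% lower (edgeR), while 8 had an unadjusted p under 0.05 and DESeq2 called 1. Over the mean of the 4 days, 8 of 8 were called higher against 19.2%, with 17.3% called lower. The median log2 fold change of the 8 members was 0.63 at day 3, 1.13 at day 6, 0.85 at day 12, 0.83 at day 21, and 0.88 over the mean, while the median over all tested genes lay between -0.01 and 0.01 at each of them. Of the genes called over the mean of the days, 52.6% were higher in HNKO. Scaling by total counts without the trimmed mean of M-values (TMM) raised this share to 90.2% and the median of all tested genes to 0.19, and the 8 members were called higher under either scaling.

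The calls at single days rested on few mice. At day 12, no member passed the test when library 12, 13, 16, 33, or 34 was left out, 1 did without library 11, and 7 did without HNKO library 36. At day 6, all 8 passed without HNKO library 6 or 31. In a fit of the 2 groups of a day alone, H2-Eb1 at day 6 (adjusted p = 0.0821) and H2-DMa at day 12 (0.0757) lost their calls, while H2-Eb1 was called at day 12 (0.0302) and so was H2-Aa (0.0443, edgeR). With all 40 libraries, H2-Eb1 (0.0506) and H2-DMb1 (0.0791) at day 6 and Ciita at day 12 (0.0563) were not called (edgeR). Without WT library 26, the 8 log2 fold changes at day 3 lay between 0.34 (Ctss) and 1.20 (H2-Eb1), and none passed.

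**Figure D2:**
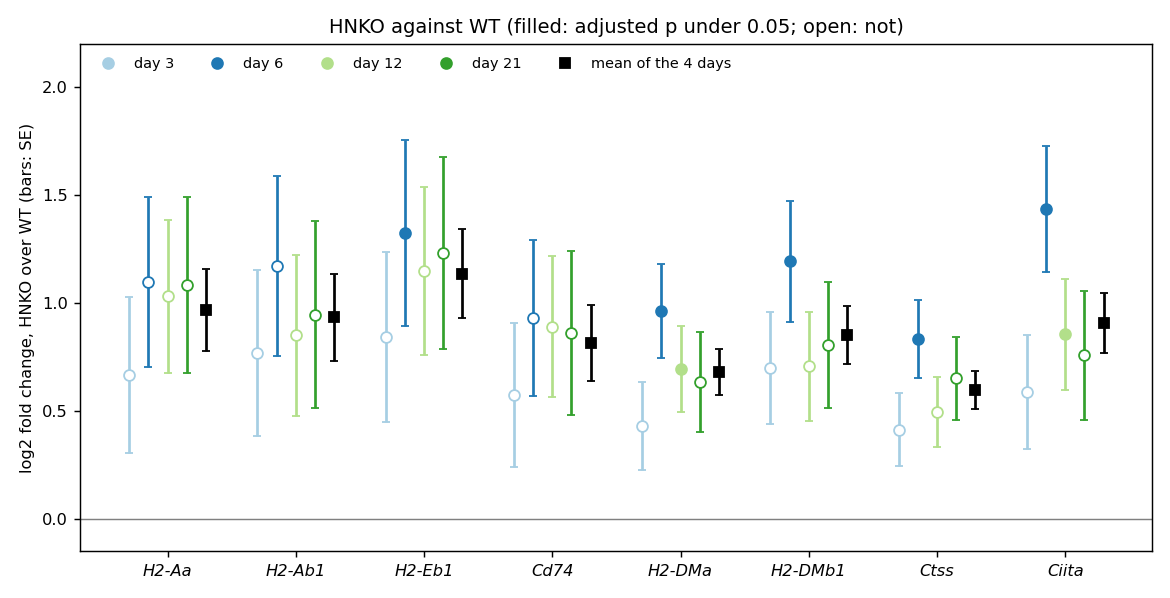
Log2 fold change of HNKO over WT for each member at days 3, 6, 12, and 21 (circles) and over the mean of the 4 days (squares), with SE. Filled symbols have an adjusted p under 0.05, which holds for all 8 means, 5 genes at day 6, and 2 at day 12, and all 40 values lie above 0.

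The chain genes H2-Aa, H2-Ab1, and H2-Eb1 encode chains of class II molecules, and lie side by side on chromosome 17 of GRCm38. The alpha chain partner of H2-Eb1 is not expressed in this strain. H2-Ab1 (ENSMUSG00000073421.6), the beta chain of I-A, spans chr17:34257689-34269419 on the plus strand. H2-Aa (ENSMUSG00000036594.15), its alpha chain, spans chr17:34282744-34287823 on the minus strand, and H2-Eb1 (ENSMUSG00000060586.11), the beta chain of I-E, spans chr17:34305867-34316674 on the plus strand. These 3 genes had the largest log2 fold changes over the mean of the days, and also the widest spread between mice of a group.

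H2-Eb1 at day 3 was 4.10, 4.16, 4.18, 4.6, and 5.53 log2 CPM in the 5 WT livers, and 4.23, 4.73, 5.31, 6.02, and 6.17 in the 5 HNKO livers. Only 2 of the 5 HNKO libraries were above every WT library, since WT library 26 (5.53) lay among them. The log2 fold change was 0.84 (SE 0.39) and did not pass the test (adjusted p = 0.213, edgeR). At day 6 the WT values were 3.80, 3.82, 4.16, and 4.95, and the HNKO values were 4.62, 4.71, 4.94, 6.19, and 6.41. The groups overlapped through WT library 27, and HNKO libraries 7 and 29 lay more than 1 log2 unit above the other 3. H2-Eb1 rose at day 6 (log2 fold change 1.32, SE 0.43, adjusted p = 0.0377, edgeR), although the exact permutation test of the means did not pass (two-sided, p = 0.0635). At day 12 the WT values lay close together, at 3.54, 3.59, 3.71, 3.73, and 3.89, while HNKO ranged from 3.78 to 5.54 with a median of 4.64. Here 5 of 6 HNKO libraries were above every WT library (exact permutation p = 0.00866, two-sided), while the fit gave 1.15 (SE 0.39, adjusted p = 0.061, edgeR). The WT livers of day 21 had 3.26, 3.72, 4.01, 4.16, and 4.61, and HNKO livers 4.07, 5.11, and 5.98, so that 1 of the 3 HNKO libraries overlapped WT. The log2 fold change there was 1.23 (SE 0.44, adjusted p = 0.119, edgeR), and 1.14 (SE 0.21) over the mean of the days (adjusted p = 5.67e-05, edgeR).

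H2-Ab1 had the widest spread among HNKO livers. At day 12 its HNKO values were lowest at 3.66, with a median of 4.82 and a highest value of 6.01 log2 CPM, against 3.91, 4.08, 4.17, 4.30, and 4.62 in WT, so that the HNKO group reached both below and above WT. At day 6 it was 4.26, 4.55, 4.78, and 5.10 in WT and 4.70, 5.02, 5.38, 6.57, and 6.60 in HNKO. H2-Ab1 passed the test at no single day, with log2 fold changes of 0.77 (SE 0.38) at day 3, 1.17 (SE 0.42) at day 6, 0.85 (SE 0.37) at day 12, and 0.95 (SE 0.44) at day 21. Its adjusted p-values were 0.248, 0.0594, 0.153, and 0.237 (edgeR). Over the mean of the days it was higher in HNKO by 0.93 (SE 0.20, adjusted p = 0.00042, edgeR), which is 1.91-fold.

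H2-Aa followed H2-Eb1 closely. Its WT means were 5.22 ± 0.51 at day 3 (SD, n = 5), 4.91 ± 0.43 at day 6 (SD, n = 4), 4.27 ± 0.15 at day 12 (SD, n = 5), and 4.71 ± 0.53 at day 21 (SD, n = 5). The HNKO means were 5.82 ± 0.73 at day 3 (SD, n = 5), 5.87 ± 0.79 at day 6 (SD, n = 5), 5.18 ± 0.65 at day 12 (SD, n = 6), and 5.72 ± 0.82 at day 21 (SD, n = 3). At day 12, 5 of 6 HNKO libraries were above every WT library (exact permutation p = 0.00866, two-sided). No single day passed the fit across all genes, in which the smallest adjusted p was 0.0606 at day 6 (edgeR), and the log2 fold change over the mean was 0.97 (SE 0.19, adjusted p = 0.000136, edgeR).

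**Figure D3:**
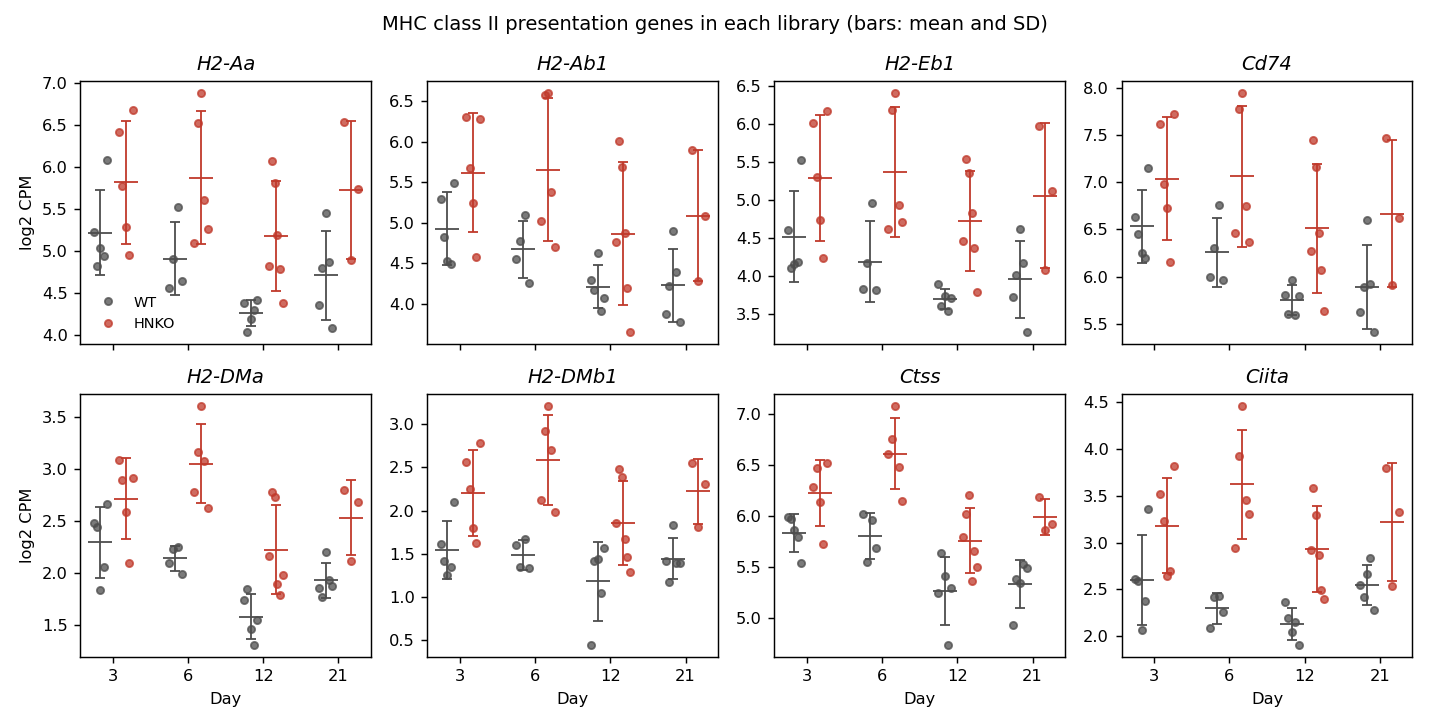
Log2 CPM of each member in every library by day, in WT (grey) and HNKO (red), with mean and SD. The HNKO points spread more widely than the WT points at most days, and the groups are fully separated for H2-DMa, H2-DMb1, Ctss, and Ciita at day 6, for Ciita at day 12, and for Ctss at day 21. Of all tested genes, 8.08% were so separated with HNKO higher at day 6, 2.65% at day 12, and 7.25% at day 21.

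Cd74 and Ctss act on the chains before peptide loading, and are the most abundant members per length. Cd74 (ENSMUSG00000024610.15), the invariant chain, lies on chromosome 18 from 60803848 to 60812652 on the plus strand. At day 6 it was 5.97, 6.00, 6.30, and 6.75 log2 CPM in WT and 6.36, 6.47, 6.75, 7.78, and 7.95 in HNKO livers, with 2 of 5 HNKO libraries above every WT library. At day 12, WT ranged from 5.59 to 5.97, and HNKO from 5.64 over a median of 6.37 to 7.45. The log2 fold changes were 0.57 (SE 0.33) at day 3, 0.93 (SE 0.36) at day 6, 0.89 (SE 0.33) at day 12, and 0.86 (SE 0.38) at day 21, none of which passed the test, with a smallest adjusted p of 0.0834 at day 12 (edgeR). Without library 37, the highest HNKO library of day 21, the value of that day was 0.38 for Cd74, and those of the other 7 members lay between 0.45 (Ciita) and 0.68 (H2-Eb1). Over the mean of the days Cd74 was higher in HNKO by 0.81 (SE 0.18, adjusted p = 0.00041, edgeR).

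Ctss (ENSMUSG00000038642.10), the cathepsin S gene on chr3:95526786-95556403 (plus strand), had the smallest log2 fold change over the mean of the days, at 0.60 (SE 0.09, adjusted p = 3.19e-06, edgeR), and the smallest spread between HNKO mice. At day 6 its WT values were 5.55, 5.68, 5.97, and 6.02 log2 CPM, and its HNKO values were 6.15, 6.48, 6.61, 6.76, and 7.08. All 5 HNKO libraries were above every WT library there, which held for 8.08% of all tested genes at that day. Ctss rose at day 6 (log2 fold change 0.83, SE 0.18, adjusted p = 0.00257, edgeR). The WT livers of day 21 had 4.93, 5.34, 5.38, 5.49, and 5.53, and HNKO livers 5.86, 5.92, and 6.19, again without overlap, as for 7.25% of all tested genes. The adjusted p at day 21 was 0.0536 for a log2 fold change of 0.65 (SE 0.19, edgeR), while the exact permutation test gave p = 0.0357 (two-sided). In WT library 26, Ctss was the lowest of the day 3 WT values at 5.54, although 7 of the 8 members were highest there.

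H2-DMa and H2-DMb1 encode the chains of the peptide exchange factor H2-DM. H2-DMa (ENSMUSG00000037649.10) spans chr17:34119541-34139101 and H2-DMb1 (ENSMUSG00000079547.4) chr17:34153072-34160230, both on the plus strand. H2-DMa at day 6 was 2.0, 2.10, 2.23, and 2.25 log2 CPM in WT, against 2.63, 2.79, 3.08, 3.17, and 3.61 in HNKO. H2-DMb1 at day 6 was 1.33, 1.34, 1.6, and 1.67 in WT, against 1.98, 2.12, 2.7, 2.93, and 3.21 in HNKO. For neither gene did the genotypes overlap at day 6, where 8.08% of all tested genes had every HNKO library above every WT library. Both rose on the log2 scale, H2-DMa by 0.96 (SE 0.22, adjusted p = 0.00353, edgeR) and H2-DMb1 by 1.19 (SE 0.28, adjusted p = 0.00442, edgeR). At day 12, H2-DMa ranged from 1.31 to 1.85 in WT and from 1.79 over a median of 2.08 to 2.78 in HNKO. It rose there by 0.69 (SE 0.20, adjusted p = 0.0291, edgeR), whereas H2-DMb1 had a log2 fold change of 0.71 (SE 0.25) and an adjusted p of 0.0747 (edgeR). Over the mean of the days, H2-DMa was higher by 0.68 (SE 0.11, adjusted p = 7.01e-06, edgeR) and H2-DMb1 by 0.85 (SE 0.14, adjusted p = 8.58e-06, edgeR). Of the stretches of 51 bases, the read length, in H2-DMb1 transcripts, 22.3% also occur in its neighbour H2-DMb2, so that reads from these stretches could come from either gene. H2-DMa shares 8.39% of its stretches with Brd2, which overlaps it on the opposite strand with a median of 2641.5 counts, and the use of strand in counting is not given in the sources used here. For Ciita and Dexi, on opposite strands too, the share was 1.42% and the median of Dexi 317 counts.

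Ciita (ENSMUSG00000022504.10), the coactivator on chr16:10480059-10528418 (plus strand), was the least abundant member per length, and did not overlap between the genotypes at days 6 and 12. At day 6 its WT values were 2.08, 2.26, 2.42, and 2.43 log2 CPM, and its HNKO values were 2.95, 3.31, 3.46, 3.93, and 4.46. All 5 HNKO libraries lay above every WT library, as in 8.08% of all tested genes, and Ciita rose by 1.43 on the log2 scale (SE 0.29, adjusted p = 0.00129, edgeR). At day 12, WT values were 1.91, 2.05, 2.15, 2.19, and 2.36, and HNKO values ranged from 2.39 over a median of 2.90 to 3.59. All 6 HNKO libraries were above every WT library, as in 2.65% of all tested genes, and Ciita rose by 0.85 (SE 0.26, adjusted p = 0.0379, edgeR). Day 3 values were 2.06, 2.37, 2.59, 2.61, and 3.36 in WT and 2.65, 2.7, 3.23, 3.52, and 3.81 in HNKO. The groups overlapped there through WT library 26 (3.36), and no member was fully separated at day 3, while 2.31% of all tested genes were. At day 21, HNKO livers had 2.54, 3.32, and 3.79 and WT livers 2.28, 2.41, 2.54, 2.66, and 2.84, where the fold change on the log2 scale was 0.76 (SE 0.30, adjusted p = 0.159, edgeR). Over the mean of the days Ciita was 1.88-fold higher in HNKO, or 0.91 on the log2 scale (SE 0.14, adjusted p = 4.88e-06, edgeR).

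Whether the difference between genotypes changed with the day was tested by the interaction term. None of the 8 members was called, and none had an unadjusted p under 0.05, with unadjusted p-values from 0.18 (Ciita) to 0.903 (H2-Ab1) and an adjusted p of 0.999839 for each (edgeR), and 0% of all tested genes were called. DESeq2 called 0 members as well. A larger difference at day 6 than at other days is therefore not shown. Within WT, 5.84% of all tested genes were called for an effect of day, with 1 of the 8 members among them, Ctss (adjusted p = 0.0478, edgeR), which was not called with scaling by total counts, all 40 libraries, or no filter. Its WT mean was 5.83 ± 0.18 log2 CPM at day 3 (SD, n = 5), 5.80 ± 0.23 at day 6 (SD, n = 4), 5.26 ± 0.33 at day 12 (SD, n = 5), and 5.34 ± 0.24 at day 21 (SD, n = 5). Within HNKO, 7.9% of all tested genes were called, with 2 members, Ctss (adjusted p = 0.0038, edgeR) and H2-DMa (adjusted p = 0.0266, edgeR). In HNKO, Ctss was 6.61 ± 0.34 at day 6 (SD, n = 5) and 5.76 ± 0.32 at day 12 (SD, n = 6), and H2-DMa was 3.05 ± 0.38 at day 6 (SD, n = 5) and 2.23 ± 0.43 at day 12 (SD, n = 6). The WT mean of each of the 8 members was lowest at day 12, although for 7 of them the effect of day in WT did not pass the test.

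The members varied together from mouse to mouse within the groups. Given as a description over deviations from the group means of the 38 libraries, Pearson's r was 0.99 between H2-Aa and H2-Eb1, 0.98 between H2-Ab1 and Cd74, 0.98 between H2-Eb1 and Cd74, and 0.97 between H2-Aa and Cd74. Against the mean of the other 7 members, r was 0.98 for Cd74, 0.90 for Ciita, 0.86 for H2-DMa, 0.85 for H2-DMb1, and 0.56 for Ctss. Ctss had the lowest r with each of the other members, down to 0.43 with Ciita. The values of a library share its depth and its scaling. The SD within groups was larger in HNKO than in WT for each of the 8 genes, for example 0.84 against 0.39 for H2-Ab1, 0.71 against 0.36 for Cd74, 0.53 against 0.29 for Ciita, and 0.31 against 0.25 for Ctss. Library 29 at day 6 and library 37 at day 21 were the highest HNKO library of their day for all 8 members, library 12 at day 12 for 7, and library 23 at day 3 for 6. Library 38 was the lowest of day 21 for all 8.

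The promoters were searched for the letters of the shared elements, in the stretch from 250 bases before to 50 after each start in the RefSeq promoters of GRCm38.p6. Promoters were found for H2-Aa, H2-Eb1, H2-DMa (with 2 starts), H2-DMb1, and Ctss. The X box core AGNAACNGA, on either strand, occurred in 5.35% of the 32851 promoters of the table, the Y box ATTGG in 37.4%, and the S box GGACC in 45.5%. An X box core followed on the same strand by ATTGG within 10 to 40 bases occurred in 38 promoters, or 0.116%, and H2-Eb1 and H2-DMb1 were among them. The stretches from 120 to 21 bases before the start are shown for these and for H2-Aa, since the elements of class II promoters are known to lie in this stretch, with the letters that match the X box core and ATTGG (or its reverse complement) in capitals.
H2-Eb1, chr17:34305747-34305846, plus strand: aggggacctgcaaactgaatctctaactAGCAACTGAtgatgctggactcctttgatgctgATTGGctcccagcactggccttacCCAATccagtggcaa
H2-DMb1, chr17:34153071-34153170, plus strand: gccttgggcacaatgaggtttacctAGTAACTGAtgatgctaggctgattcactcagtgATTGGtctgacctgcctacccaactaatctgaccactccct
H2-Aa, chr17:34287844-34287943, minus strand: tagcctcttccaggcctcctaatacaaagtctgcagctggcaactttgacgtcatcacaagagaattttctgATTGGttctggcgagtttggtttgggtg
In H2-Eb1 the X box core began 92 bases before the start and ATTGG followed after 24 bases. In H2-DMb1 it began 95 bases before the start, with ATTGG after 25 bases, and this RefSeq start lies downstream of the GENCODE start, so that the stretch shown overlaps the gene span given above in all but its first base. H2-Aa held ATTGG from 48 bases before the start, and these X box core letters were not in its window. H2-DMa and Ctss held no such pair, and the promoters of Ctss and of the first H2-DMa start held neither the X box core letters nor ATTGG. The promoters of H2-Ab1, Ciita, and Cd74 were not analysed here. A match is a description of the letters and not a measurement of binding.

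Other genes of the pathway were taken from lists of its roles, and did not all move with the members. The counts over the mean of the days are to be read against the 19.2% of all tested genes called higher and the 17.3% called lower, and those of most lists depended on the scaling. With scaling by total counts, the genes called higher were 1 of 4 of the other class II genes, 6 of 10 promoter factors, 7 of 8 of the interferon gamma axis, 6 of 10 of endolysosomal processing, 5 of 6 of surface turnover and costimulation, and 7 of 9 of class I presentation, with 0 lower in each. With all 40 libraries, Irf4 (adjusted p = 0.147), Nfya (0.0954), Gbp2 (0.279), and March1 (0.264) were not called (edgeR). Of the 5 other class II chain and chaperone genes, 4 were tested (H2-Oa, H2-Ob, H2-DMb2, and H2-Eb2) and 0 were called at any day or over the mean (edgeR), nor did DESeq2 call any over the mean, where 1 had an unadjusted p under 0.05. They had log2 fold changes from 0.11 to 0.54 over the mean, where that 1 gene was H2-Oa, a chain of the H2-DM inhibitor H2-O (adjusted p = 0.0754, edgeR). Their median over the mean was 0.26, against 0.88 for the members and -0.01 for all tested genes.

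Of the 10 factors that act on class II promoters, 4 were called higher and 2 lower over the mean of the days, the latter near the share of all tested genes. Irf8 (0.57, SE 0.07, adjusted p = 2.74e-07, edgeR) and Spi1 (0.53, SE 0.10, adjusted p = 0.000106, edgeR), transcription factors of myeloid cells, were higher, and so were Irf4 (0.42, SE 0.14) and Nfya (0.21, SE 0.05). Nfyb (-0.29, SE 0.08) and Nfyc (-0.16, SE 0.05), which pair with Nfya on the Y box, were lower, but with scaling by total counts neither was called and Nfyc turned to 0.03. Irf8 rose at days 6, 12, and 21, and Spi1 at days 6 and 12, while Creb1 fell at day 12 alone (-0.26, SE 0.07, adjusted p = 0.0237, edgeR). The subunits of RFX, the complex that binds the X box, were not called, and are named here after their values were seen, with log2 fold changes over the mean of 0.02 (SE 0.07) for Rfx5, 0.04 (SE 0.10) for Rfxank, and -0.13 (SE 0.07) for Rfxap.

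Interferon gamma is the main inducer of Ciita outside of dedicated antigen-presenting cells. Ifng itself had at most 3 counts in any of the 38 libraries and was not tested. Of the 8 tested genes of its axis, 2 were called higher over the mean, the receptor chain Ifngr1 (0.43, SE 0.07, adjusted p = 9.66e-06, edgeR) and the induced GTPase Gbp2 (0.33, SE 0.09, adjusted p = 0.00371, edgeR), and 0 lower, which is near the share of all tested genes. At day 6, where 8.42% of all tested genes were called higher and 4.37% lower, 4 of the 8 were called higher, Gbp2 (0.80, SE 0.18), Ifngr1 (0.57, SE 0.14), Ifngr2 (0.43, SE 0.13), and Jak2 (0.29, SE 0.09), and at day 12 Ifngr1 alone. Over the mean, the transcription factor Irf1 had 0.03 (SE 0.08) and the chemokine Cxcl9 0.38 (SE 0.18, adjusted p = 0.0982, edgeR), neither of which passed the test.

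Of the 10 other genes of endolysosomal processing, 3 were called higher and 2 lower over the mean, near the share of all tested genes in either direction. Lgmn, the asparaginyl endopeptidase (0.49, SE 0.08, adjusted p = 7.32e-06, edgeR), Ifi30, a thiol reductase (0.48, SE 0.12, adjusted p = 0.00182, edgeR), and Cst3, a cathepsin inhibitor (0.17, SE 0.04), were higher. The cathepsins Ctsh (-0.25, SE 0.06) and Ctsz (-0.14, SE 0.05) were lower, but with scaling by total counts neither was called and Ctsz turned to 0.05. Without the filter on low counts, 1 of the 10 genes was called lower. Of the 6 genes of surface turnover and costimulation, 3 were called higher and 0 lower, namely Cd40 (0.64, SE 0.14, adjusted p = 0.000437, edgeR), Cd86 (0.37, SE 0.10), and March1, the ubiquitin ligase that removes class II from the surface (0.32, SE 0.09). Of the 9 genes of class I presentation, the immunoproteasome subunit Psmb8 was called higher over the mean (0.16, SE 0.06, adjusted p = 0.0325, edgeR), and 0 were called at any single day. Psmb8 was not called without the filter on low counts or with all 40 libraries, where 0 of the 9 were. The median of the class I genes over the mean was 0.03.

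**Figure D4:**
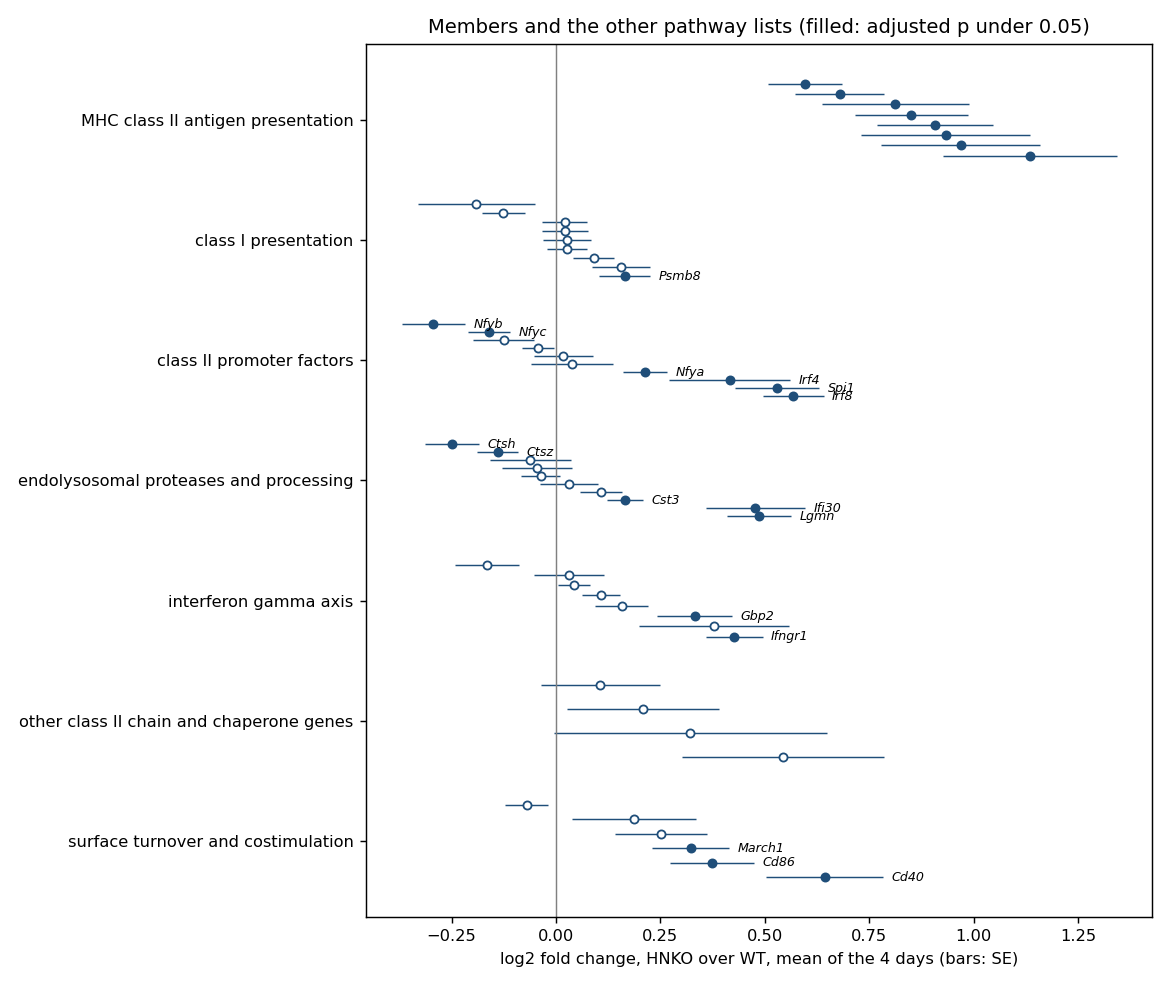
Log2 fold change of HNKO over WT over the mean of the 4 days, with SE, for the 8 members and the other genes of the pathway by list, where filled points have an adjusted p under 0.05 and, outside the members, are named. The members lie between 0.60 and 1.14, to the right of each gene of the class I list.

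Among the cells that can carry class II, markers of monocytes and macrophages, dendritic cells, and Kupffer cells were in part called higher in HNKO, and those of B cells and sinusoidal endothelial cells were not. The marker counts over the mean, here and below, are to be read against the 19.2% of all tested genes called higher and the 17.3% called lower. Of the 8 genes of recruited monocytes and macrophages, 8 were called higher over the mean, among them Cx3cr1 (2.53, SE 0.25), Gpnmb (3.75, SE 0.39), Ccr2 (2.21, SE 0.24), and Trem2 (1.98, SE 0.23), and their summed level ranged from 49.2 to 114 CPM in WT and from 70.2 to 395 CPM in HNKO. Of the 8 dendritic cell genes, 4 were called higher, namely Itgax (1.63, SE 0.20), Cd209a (1.56, SE 0.28), Flt3 (1.12, SE 0.21), and Clec10a (0.80, SE 0.17), and 1 lower, Zbtb46 (-0.10, SE 0.04), which turned to 0.10 with scaling by total counts and was not called then, when 7 of the 8 were called higher. Zbtb46 was also not called with all 40 libraries (adjusted p = 0.0674, edgeR) or without the filter on low counts. The sum of the dendritic cell genes ranged from 24.2 to 33.3 CPM in WT and from 25.1 to 53.1 CPM in HNKO. Of the 9 Kupffer cell genes, 6 were called higher and 0 lower, with C1qc (0.44, SE 0.08), C1qb (0.50, SE 0.10), Marco (1.37, SE 0.35), and Vsig4 (0.28, SE 0.08) first by p, and sums from 288 to 773 CPM in WT and from 382 to 1020 CPM in HNKO. With scaling by total counts, 9 of the 9 Kupffer cell genes were called higher.

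Of the 7 B cell genes, 0 were called higher and 1 lower over the mean, Fcmr (-0.49, SE 0.20, adjusted p = 0.0498, edgeR), near the 17.3% of all tested genes called lower. Fcmr lost its call with scaling by total counts, all 40 libraries, the edgeR 4 computation, the label series as a covariate, and no filter (adjusted p from 0.0523 to 0.284). Ms4a1 was lower at day 3 (-1.68, SE 0.44, adjusted p = 0.0252, edgeR), the day of WT library 26. Of the 7 T cell genes, 0 were called over the mean by edgeR or DESeq2 and 0 had an unadjusted p under 0.05 there, while their median was 0.24 and 5 were called higher with scaling by total counts. Their sum ranged from 3.15 to 11.4 CPM in WT and from 3.91 to 8.92 CPM in HNKO. The 6 cholangiocyte genes were all called higher, among them Spp1 (2.71, SE 0.19) and Cftr (2.92, SE 0.21). Of the 6 sinusoidal endothelial genes, 0 were called higher and 1 lower, Oit3 (-0.34, SE 0.05), near the 17.3% of all tested genes called lower. With scaling by total counts, 4 of these endothelial genes were called higher and 1 lower. Of the 5 hepatocyte genes, 2 were called lower, Alb (-0.46, SE 0.09) and Ttr (-0.40, SE 0.09), and their sum ranged from 81800 to 138000 CPM in WT and from 53300 to 114000 CPM in HNKO. None of the 56 markers was at 0 in every library. The part of these cells in the members' difference was not tested.

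Whether class II levels followed these markers from mouse to mouse was tested with H2-Ab1, as deviations from the group means over the 38 libraries, against the mean log2 CPM of each of the 8 lists. H2-Ab1 was higher in mice with more RNA of dendritic cell markers (Pearson r = 0.82, permutation p = 1e-05, adjusted p = 4e-05, Spearman rho = 0.82, permutation p = 1e-05, adjusted p = 4e-05), and 1e-05 is the smallest value that the permutations can give. The relation to T cell markers was similar in size (r = 0.77, permutation p = 1e-05, adjusted p = 4e-05, rho = 0.83, permutation p = 1e-05, adjusted p = 4e-05), as was that to recruited monocytes and macrophages (r = 0.77, permutation p = 7e-05, adjusted p = 0.000187, rho = 0.72, permutation p = 0.00011, adjusted p = 0.000293). For hepatocyte markers it was inverse (r = -0.55, permutation p = 0.00197, adjusted p = 0.00394, rho = -0.60, permutation p = 0.00041, adjusted p = 0.00082). No relation passed for B cells (r = 0.14, permutation p = 0.331, adjusted p = 0.348, rho = 0.13, permutation p = 0.428, adjusted p = 0.428) or Kupffer cells (r = 0.18, permutation p = 0.348, adjusted p = 0.348, rho = 0.25, permutation p = 0.169, adjusted p = 0.225). Sinusoidal endothelial markers did not pass either (r = 0.25, permutation p = 0.146, adjusted p = 0.195, rho = 0.21, permutation p = 0.245, adjusted p = 0.28), and cholangiocyte markers passed by rank alone (r = 0.38, permutation p = 0.0791, adjusted p = 0.127, rho = 0.44, permutation p = 0.0227, adjusted p = 0.0363), which was lost with all 40 libraries (rho = 0.36, adjusted permutation p = 0.0826). With all 40 libraries, the relation to T cell markers did not pass by r (0.39, adjusted permutation p = 0.0562) and passed by rank (rho = 0.71, adjusted permutation p = 8e-05).

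Without the 2 libraries farthest from the median of the list, r was 0.82 for dendritic cells, 0.78 for T cells, 0.72 for monocytes and macrophages, and -0.45 for hepatocytes. For B cells it was -0.002, for Kupffer cells 0.18, for sinusoidal endothelial cells 0.25, and for cholangiocytes 0.52. Within the first and second label series (n = 18 and 20), r was 0.85 and 0.87 for dendritic cells, 0.87 and 0.81 for T cells, 0.69 and 0.83 for monocytes and macrophages, and -0.58 and -0.79 for hepatocytes. The same values were -0.05 and 0.32 for B cells, -0.19 and 0.08 for Kupffer cells, 0.09 and 0.23 for sinusoidal endothelial cells, and 0.31 and 0.70 for cholangiocytes. Within WT and within HNKO (n = 19 each), r was 0.57 and 0.88 for dendritic cells, 0.39 and 0.83 for monocytes and macrophages, 0.69 and 0.90 for T cells, and -0.29 and -0.62 for hepatocytes. For B cells the signs were opposite, at 0.50 and -0.20, and r was 0.19 and 0.19 for Kupffer cells, 0.09 and 0.37 for sinusoidal endothelial cells, and 0.38 and 0.38 for cholangiocytes. Whether these differ between the genotypes was not tested.

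**Figure D5:**
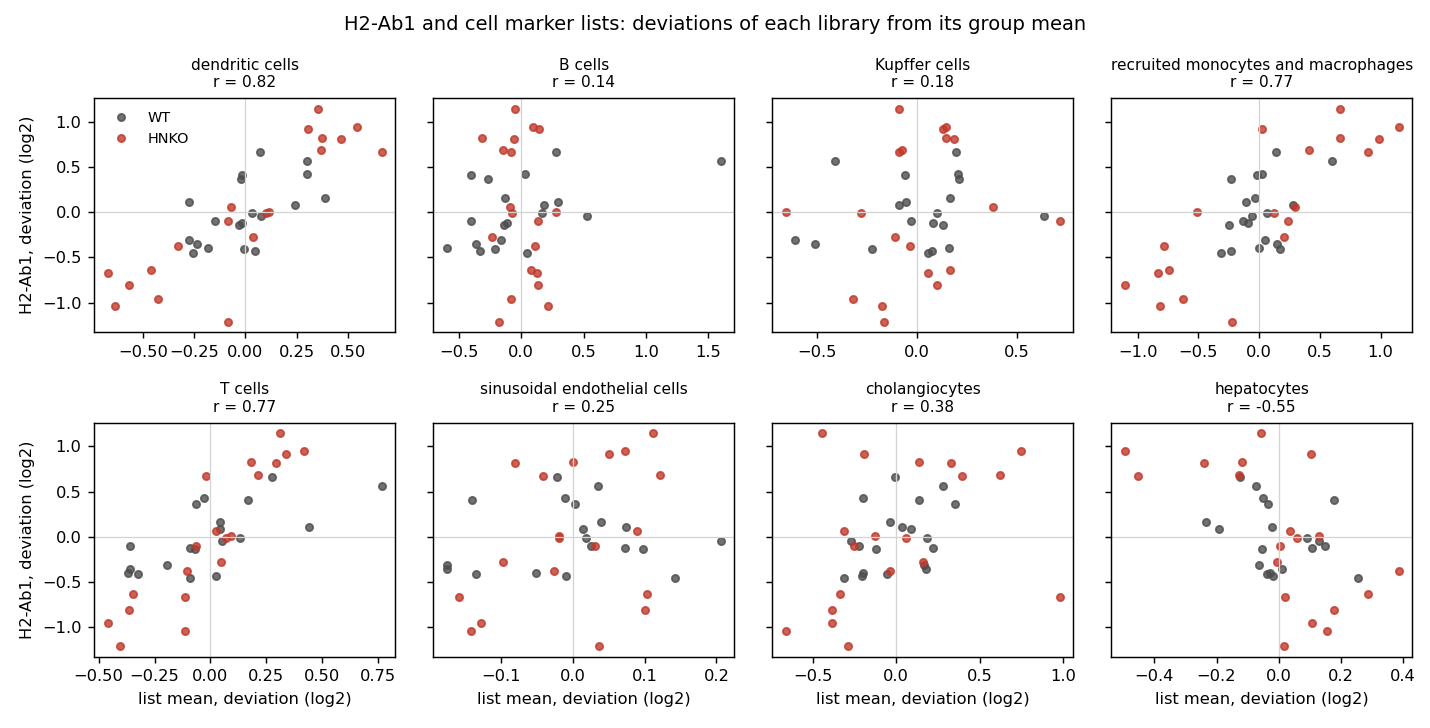
H2-Ab1 (y axis) against the mean of each marker list (x axis), both as deviations of a library from the mean of its group in log2 CPM, in WT (grey) and HNKO (red). The points rise from left to right for dendritic cells (r = 0.82), T cells (r = 0.77), and monocytes and macrophages (r = 0.77), and form no line for B cells, where library 26 lies alone at the right, and Kupffer cells.

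Among all other tested genes, the 10 whose deviations were most like the mean deviation of the 8 members over the 38 libraries were Myof (r = 0.91), Lsp1 (0.90), Mfge8 (0.89), Itgax (0.89), Cpxm1 (0.88), Cx3cr1 (0.87), Arhgef6 (0.87), Irf8 (0.87), Ubd (0.86), and Emp2 (0.86). Itgax and Cx3cr1 are also in the marker lists above. The 10 include the integrin of dendritic cells and macrophages Itgax, the fractalkine receptor Cx3cr1 of monocytes and macrophages, the leukocyte protein Lsp1, and the ubiquitin-like protein Ubd. Collagen genes ranked soon after them, among these Col3a1 (r = 0.85, rank 13) and Col6a3 (r = 0.84, rank 15), so that the likeness was not limited to genes of immune cells. All 10 were called higher in HNKO over the mean of the days (edgeR), with log2 fold changes from 0.43 (Arhgef6, SE 0.08) to 3.49 (Ubd, SE 0.46), where 19.2% of all tested genes were. The 10 were chosen in these same libraries, and the members' deviations were wider in HNKO than in WT. This count is therefore a description and not a separate test. Myof rose at all 4 days, by 0.97 (SE 0.23), 1.44 (SE 0.26), 0.99 (SE 0.23), and 1.02 (SE 0.26). Nampt had an r of 0.099 with the members.

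Within the label series, the HNKO mean was above the WT mean in all 56 comparisons that could be made, for the 8 members in 7 pairs of groups, by 0.17 to 1.41 log2 CPM. The 56 are not independent, since the members share the libraries of a pair and varied together. The share of all tested genes with the same sign was not computed. Day 21 could be compared in the second series alone, with 3 HNKO and 2 WT libraries. The exact permutation tests, which can go no lower than 0.00794 at days 3 and 6, 0.00216 at day 12, and 0.0179 at day 21 (two-sided), gave a p under 0.05 for 2 members at day 3 (H2-DMb1 and Ctss, 0.0476 each). They did so for 4 members at day 6 (H2-DMa, H2-DMb1, Ciita, and Ctss, 0.0159 each) and for 1 member at day 21 (Ctss). At day 12, 7 members did, all but H2-Ab1 (0.156), with Ciita lowest at 0.00433. These p-values are not adjusted for the 32 tests.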

How the data were processed

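Liver RNA was depleted of ribosomal RNA and sequenced as 51-base read pairs, with 1 library for each mouse. The authors aligned the reads with STAR 2.7.2b to GRCm38 and counted fragments per gene with featureCounts 1.6.4, and the deposited values are these raw counts for 55487 genes, not normalized. Whether the counting used strand is not given in the sources used here, and the authors tested with edgeR 3.26.0. Gene positions and exon lengths were taken from GENCODE M21 of the same build.

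Here, the deposited counts of 38 libraries were fitted with edgeR 4.0.16 (R 4.3.3), with TMM scaling, the filter of filterByExpr (count 10, total 15, proportion 0.7), a mean for each genotype and day, the quasi-likelihood F test, and Benjamini-Hochberg adjustment over the 20297 tested genes (threshold 0.05). Log2 CPM used a prior count of 2. CPM per kb divides by the length of the union of annotated exons. Single members were compared with exact two-sided permutation tests, and relations with 100000 permutations within groups (Python 3.11.15, scipy 1.17.1), adjusted over the 8 lists. DESeq2 1.42.0 and other settings were alternatives. The fits were tested on simulated data. Groups came from the labels.

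The members and lists were chosen with earlier results of these data known. Named were the 8 members, called genes of the pathway lists, up to 4 genes of each marker list by p, and the 10 genes most like the members. Other genes beside them were named after their values were seen. Total counts ranged from 16151037 to 64181492, and intervals and floors cover counting error only.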

Additional observations from a re-analysis of the deposited data

Results flagged for a closer look

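HNKO libraries 17 and 18 of day 21, which the labels describe as failing quality control and which were left out of the comparisons, had values above every WT library of their day for 12 of 16 values. The share of all tested genes above WT in these libraries was not computed, and the members of a library are not independent of each other. In library 18 all 8 members were above the highest WT library, on the log2 CPM scale with all 40 libraries. H2-Aa was 6.21 there (highest WT value 5.46), H2-Ab1 6.24 (4.90), H2-Eb1 5.77 (4.62), and Cd74 7.70 (6.60). H2-DMa was 2.66 (2.21), H2-DMb1 2.91 (1.84), Ciita 3.89 (2.86), and Ctss 6.29 (5.55). In library 17, H2-Ab1 was 5.34, H2-Eb1 5.20, H2-DMa 2.49, and Ciita 3.35, while H2-DMb1 had 2 counts. No library stood apart by Dixon's test in the 56 sets of a member in a group of 4 to 6 libraries.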

How the results depend on the processing

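Over the mean of the 4 days, all 8 members were called higher in HNKO under each alternative and without any 1 library (8 to 8 of 38 fits). All 920 log2 fold changes of members under the alternatives were higher in HNKO, but they come from refits of the same libraries and are not independent. Counts of members called at single days moved, and the cause was not tested. With scaling by total counts, the counts were 2 on day 3, 8 on day 6, 7 on day 12, and 1 on day 21, with 0 for the effect of day in WT, and 1 in HNKO, while the median of all tested genes rose to between 0.18 and 0.20 and the share of calls that were higher from between 58.2% (day 12) and 70.7% (day 21) to between 92.5% (day 3) and 95.4% (day 21). DESeq2 called 7 at day 6, 6 at day 12, 1 at day 21, and 2 for the effect of day in WT. With all 40 libraries, 3 were called on day 6, 1 on day 12, and 3 on day 21, and 0 for the effect of day in WT, 5 had an exact permutation p under 0.05 at day 21, and the relation of H2-Ab1 to T cell markers was r = 0.386 (adjusted permutation p = 0.0562), while its rank correlation still passed (rho = 0.708, adjusted permutation p = 8e-05). At day 21 the edgeR 4 computation called 1, the label series as a covariate 2 (and 2 for the effect of day in WT), and a fit of the 2 groups of the day alone 1. The covariate called 6 on day 6 and 3 on day 12, and the fit of 2 groups 4 and 3. Without a filter, 0 were called for the effect of day in WT, and the share of higher calls was 76.4% at day 6 and 81.1% at day 21, against 79.7% at day 6 in the fit of 2 groups. Leaving out 1 library gave 0 to 1 calls on day 3, 4 to 8 on day 6, 0 to 7 on day 12, and 0 to 1 on day 21. Of the results for single members, 1017 kept their side of the threshold, 52 passed only under the alternative, and 27 were lost. No result for the members reversed, whereas Nfyc, Ctsz, and Zbtb46 of the other lists turned sign with scaling by total counts. No paired analysis was possible because the library numbers are unique and the groups share none. Each day rests on 3 to 6 mice of a genotype.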

Other observations

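The balance of the I-A chains differed between stretches of library numbers, a split that was chosen after seeing the data. H2-Aa minus H2-Ab1, in log2 CPM, ranged from -0.43 to 0.13 in libraries 1 to 18 (n = 17, median 0.04), and from 0.23 to 0.72 in libraries 19 to 41 (n = 23, median 0.47), without overlap. Libraries 17 (-0.22) and 18 (-0.03), which failed quality control and were left out of the comparisons, are included here. In WT the medians were -0.01 (n = 7) and 0.46 (n = 12), and in HNKO 0.06 (n = 10) and 0.56 (n = 11). H2-Eb1 minus H2-Ab1 had medians of -0.47 and -0.21 with overlapping ranges. All libraries of day 21 that were used in the comparisons are among libraries 19 to 41. The label series divide between libraries 21 and 22, so that neither the series covariate nor the comparisons within series match this break, and WT libraries 19 to 21 of day 21 lie with the second series in it.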
